A study of Mus musculus with 2 samples.

Results

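The genes described here encode 8 secreted ADAMTS proteases, which are Adamts1, Adamts4, Adamts5, Adamts8, Adamts9, Adamts10, Adamts12 and Adamts15. They were chosen by gene symbol, and all 8 were found among the 16040 genes of the count table. The libraries came from lung fibroblasts of Col1a2-EGFP mice, 1 library after bleomycin, a DNA-damaging drug used to produce lung fibrosis, and 1 after saline. Each was made from 3 mice at day 14 after an injection into the trachea, and mice of both groups carried the green fluorescent reporter under a type 1 collagen promoter. Dissociated cells that were negative for lineage markers and positive for the reporter were sorted, so the cells were selected on activity of that promoter. The labels do not say how the mice were combined, and age and sex are not given in the labels.

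ADAMTS proteases are secreted zinc metalloproteases with thrombospondin repeats that bind them to the matrix. They are made as inactive precursors, are cut by proprotein convertases, are blocked above all by TIMP3, and are taken up from the matrix by the endocytic receptor LRP1. Adamts1, Adamts4, Adamts5, Adamts8, Adamts9 and Adamts15 belong to the group that cuts aggrecan or versican, large proteoglycans held by hyaluronan networks. Adamts10 binds fibrillin microfibrils, and Adamts12 cuts cartilage oligomeric matrix protein.

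In SAGE, the RNA of each gene is counted by a short tag beside the last site of the anchoring enzyme NlaIII, which cuts at CATG. The sequences below are the first 26 bases from the last CATG, given in capitals, on the annotated transcript of each member, and they are shown because a SAGE count is read from a tag at such a site. They were predicted from GENCODE transcripts and were not read from the libraries.
Adamts1: CATGtaaatgataaactgtggctgtg
Adamts4: CATGaaggtacaagaacagaacccaa
Adamts5: CATGaaaattgctggttcatttgcta
Adamts8: CATGgacttcagcgtgcagaatagca
Adamts9: CATGtgaaacatattataaataaata
Adamts10: CATGgtgctacaagccctgccctggg
Adamts12: CATGtttctgcactgctgctttacca
Adamts15: CATGggagctggctgctgaggtgaca

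All 8 tags differed, and no transcript of another annotated gene held any of them. The tag lay in the 3′ untranslated region in 7 members and in the coding sequence in Adamts8, where the last CATG begins 876 bases from the transcript's end. The annotated span of a gene on the other strand, Gm29724, overlaps the Adamts8 tag. The exons of that gene and its own last CATG were not examined, and its part in the Adamts8 count was not tested. The tag began 45 bases from the annotated end of the Adamts9 transcript, the nearest, and 681 bases from that of Adamts5, the farthest in an untranslated region. The tag printed is the last one of only some annotated transcripts of most members: 1 of 3 for Adamts1, Adamts12 and Adamts15, 1 of 2 for Adamts8, 2 of 6 for Adamts9 and 8 of 15 for Adamts10, against 3 of 3 for Adamts4 and the single transcript of Adamts5. For Adamts10 the table quotes a non-coding transcript record. The GENCODE transcript paired with that record is annotated with a coding sequence, and the tag position given here follows GENCODE. Whether a count holds tags of the other transcripts of a gene was not tested.

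**Figure D1:**
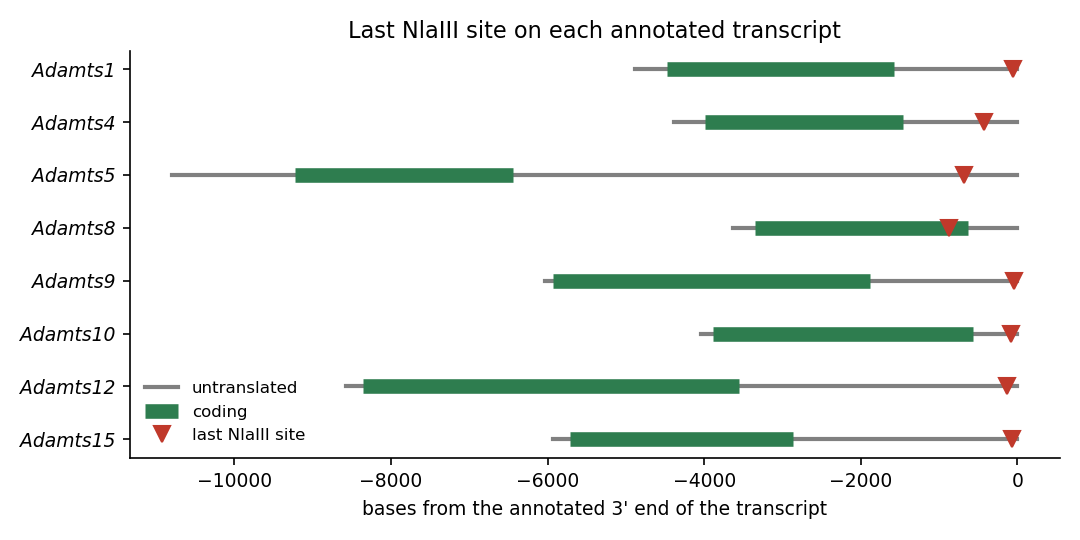
Annotated transcripts of the 8 genes, with the x axis in bases from the annotated 3′ end. Thick bars are coding sequence, thin lines are untranslated sequence and triangles mark the last NlaIII site, which lies inside the coding bar in Adamts8 and outside it in the other 7 genes.

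The bleomycin library held 1099840 counts and the saline library 1080798 counts. Among fibroblast markers, Col1a1, a type 1 collagen chain, had 7925 and 2714 counts in the bleomycin and saline libraries. Type 1 collagen genes cannot check the fibroblast label, since the cells were sorted on activity of such a promoter. Markers of other cells were present as well. Endothelial and epithelial markers were mostly in the saline library. The 10 smooth muscle markers summed to 2873 counts in the bleomycin library and 2232 in the saline library. Summed over their lists, 20 endothelial markers had 115 and 806 counts and 12 epithelial markers 39 and 249, with the epithelial genes Sftpc at 7 and 154 and Epcam at 0 and 1, whereas 8 leukocyte markers had 7 and 9. Of 10 fibroblast markers, 3 were called higher and 2 lower. Besides Col1a1, those called higher were Col1a2 at 5613 and 1636 and Thy1 at 121 and 24. Those called lower were Dcn at 1606 and 4861 and Fbln1 at 111 and 599. Of the 5 not called, Col3a1 had 6186 and 4087, Mfap5 785 and 495, and Lum 466 and 488. Pdgfra had 323 and 509, and Pdpn 95 and 84. A gene was called when its adjusted p over 9369 tested genes was under 0.05 and its ratio was past 2-fold. With 1 library per group the differences have no replicate check, and the test on counts compares the libraries and not the conditions. In bulk RNA, fewer cells of a type and less RNA per cell cannot be told apart.

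In the bleomycin library, 2 of the 8 proteases were lower, 0 were higher and 6 were not called. Among all tested genes, 8.52% were called lower and 8.08% higher, or 16.6% in either direction. The members called lower were Adamts10, at 2.06-fold lower, and Adamts8, at 3.96-fold lower on 20 counts in all. Both calls were lost when the exact test of edgeR was given a coefficient of variation of 0.2 between preparations. Past 2-fold, with no test, were 3 of 8 members, against 26.4% of all tested genes, and an adjusted p under 0.05 at any fold was reached by 3 members, against 27.9%. The log2 ratio of the members ran from −1.86 to 1.27 with a median of −0.11, while the median of all tested genes was 0.02.

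The levels of the members differed widely within each library. A SAGE library counts 1 tag site per transcript, so counts do not scale with transcript length. Levels of genes are set side by side here as tag counts. Which transcripts of a gene each count holds is not known, and the intervals cover counting error only. In the bleomycin library the order of the counts was Adamts1, Adamts15, Adamts10, Adamts5, Adamts4, Adamts9, Adamts12 and Adamts8. In the saline library it was Adamts1, Adamts10, Adamts15, Adamts5, Adamts4, Adamts9, Adamts8 and Adamts12. The 95% counting intervals of neighbours in that order overlapped in the bleomycin library for Adamts15 and Adamts10, Adamts5 and Adamts4, Adamts9 and Adamts12, and Adamts12 and Adamts8. In the saline library they overlapped for Adamts4 and Adamts9, Adamts9 and Adamts8, and Adamts8 and Adamts12. Adamts10 thus stood clear of Adamts15 in the saline library but not in the bleomycin library.

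**Figure D2:**
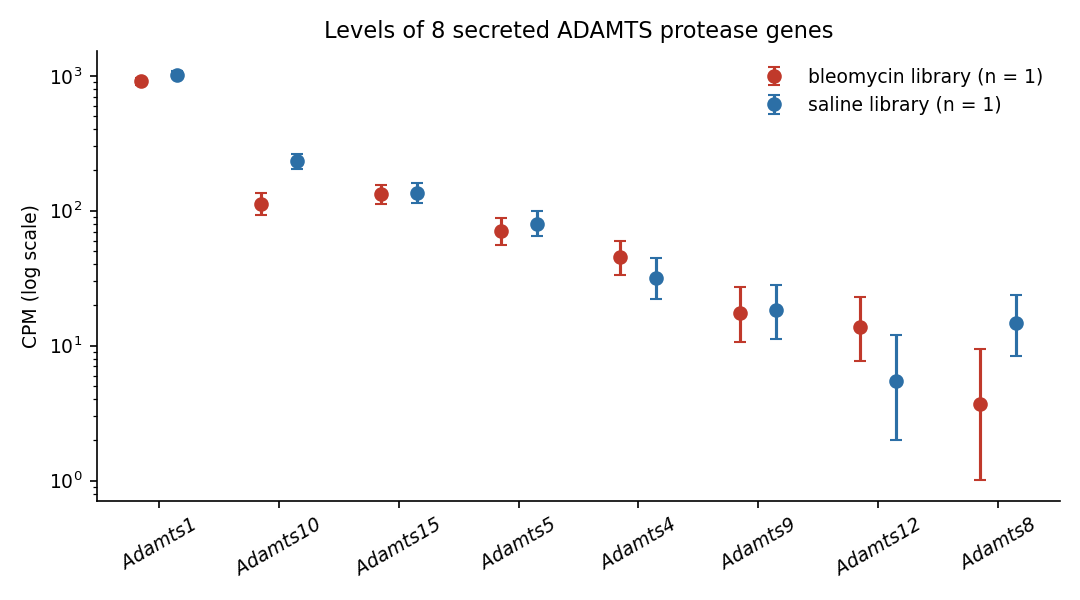
Level of each member in CPM (log axis) in the bleomycin library (red, left) and the saline library (blue, right), 1 library each, with exact 95% Poisson intervals for counting error. Adamts1 is far above the others in both libraries, and the intervals of Adamts10 do not overlap between the libraries.

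The 8 genes together had 1415 counts (95% interval 1342 to 1491) in the bleomycin library and 1686 (1606 to 1768) in the saline library. Scaled to library size, that was 1305 CPM (the count per 1000000 counts) in the bleomycin library and 1538 CPM in the saline library, a ratio of 0.849 (0.79 to 0.911). Adamts1 alone made up 69.7% of the bleomycin sum and 66.3% of the saline sum. Without Adamts1 the remaining 7 genes summed to 429 counts in the bleomycin library and 568 in the saline library, a ratio of 0.764 (0.672 to 0.867).

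Adamts1 encodes an aggrecan- and versican-cutting protease that is also an early-response gene in several cell types. It had 986 counts (925 to 1050) in the bleomycin library and 1118 (1053 to 1186) in the saline library, or 909 CPM and 1020 CPM. Its count was above that of 98.7% of detected genes in both libraries. The ratio was 0.892 (0.818 to 0.973), so its adjusted p passed the threshold but the ratio was far from 2-fold and it was not called. Of all members it had the narrowest interval, which reached no further than 1.22-fold lower.

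Genes that tissue dissociation can induce were set beside Adamts1 as a list of 17, of which 15 are early-response genes and 2, Hspa1a and Hspa1b, are heat shock genes. Of the 17, all tested, 6 were called lower, 0 higher and 11 not called, with a median log2 ratio of −0.88 and a summed level of 15565 CPM in the bleomycin library against 28504 CPM in the saline library. Without the heat shock genes, a split made after the values were seen, 6 of 15 were called lower and 9 not called, and the sum was 11148 CPM in the bleomycin library against 23121 CPM in the saline library. None of these genes was at 0 in either library. Among them Fos, a transcription factor subunit, had 3275 counts in the bleomycin library and 7525 in the saline library, Zfp36, an RNA-destabilising protein, had 1097 and 3551, Junb had 1168 and 2500, and Ier2 had 744 and 2159. Their part in the values of Adamts1 was not tested.

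Adamts4 and Adamts5 are the main aggrecanases of cartilage, and both also cut versican. Adamts4 had 49 counts (36.3 to 64.8) in the bleomycin library and 35 (24.4 to 48.7) in the saline library, a ratio of 1.42 (0.899 to 2.25). Adamts5 had 77 counts (60.8 to 96.2) in the bleomycin library and 88 (70.6 to 108) in the saline library, a ratio of 0.885 (0.643 to 1.22). Neither was called, the counting intervals overlapped between the libraries for both, and both ratio intervals held 1. At these depths a ratio of 2.02 would have been enough for a call of higher in either gene. Relative to Adamts5, Adamts4 was 1.6 times as high in the bleomycin as in the saline library, but with an exact interval from 0.91 to 2.82.

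Adamts15 and Adamts9 stood nearly level in the libraries. Adamts15, an aggrecanase related to Adamts1, had 143 counts (121 to 168) in the bleomycin library and 149 (126 to 175) in the saline library, a ratio of 0.971 (0.766 to 1.23). Adamts9, which has a long array of thrombospondin repeats and cuts versican, had 19 counts (11.4 to 29.7) in the bleomycin library and 20 (12.2 to 30.9) in the saline library, a ratio of 0.961 (0.485 to 1.90). The interval of Adamts15 keeps any difference between the libraries within 1.31-fold as far as counting error goes. That of Adamts9 is wider, and a gene of its depth needed a ratio of 2.57 to be called higher.

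Adamts8 encodes a protease with antiangiogenic activity in its thrombospondin repeats, and its RNA is known from lung. It had 4 counts (1.09 to 10.2) in the bleomycin library and 16 (9.15 to 26) in the saline library, or 3.69 CPM and 14.6 CPM. The ratio was 0.253 (0.0615 to 0.784), which is 3.96-fold lower with an interval from 1.28-fold to 16.3-fold. The gene was called lower, but on few counts, and the counting intervals of the libraries overlapped. Its ratio was the least extreme that 20 counts can give and still be called lower. The call was lost with no minimum count and with Bonferroni adjustment.

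Adamts10, whose loss causes Weill-Marchesani syndrome in humans, acts on fibrillin microfibrils more than on proteoglycans. It had 122 counts (101 to 146) in the bleomycin library and 254 (224 to 287) in the saline library, or 113 CPM and 232 CPM. The counting intervals did not overlap. The ratio was 0.486 (0.388 to 0.605), which is 2.06-fold lower with an interval from 1.65-fold to 2.58-fold, and its log2 ratio of −1.04 lay just past the 2-fold limit. Of all tested genes, 13.4% had a lower ratio. Fbn1, which encodes fibrillin and was chosen after its values were seen, had 1233 counts in the bleomycin library and 688 in the saline library, a ratio of 1.81 (1.65 to 1.99) that stayed under 2-fold.

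Adamts12 had 15 counts (8.4 to 24.7) in the bleomycin library and 6 (2.2 to 13.1) in the saline library. Its ratio of 2.53 (0.927 to 7.95) was the highest of the members, but the interval held 1 and the gene was not called. With 21 counts in all, a ratio of 4.3 was needed for a call, so a smaller rise was not detectable at this depth.

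Endothelial cells also make Adamts1, Adamts9 and other members of the family, and endothelial markers were lower in the bleomycin library. Of 16 tested, 14 were called lower and 0 higher, and the median of their log2 ratios was −3.33 (−3.07 when a count of 0 is replaced by 3). The 20 markers together stood at 106 CPM in the bleomycin library and 735 CPM in the saline library, and 4 of them were at 0 in the bleomycin library and 2 in the saline library. Ptprb had 3 counts in the bleomycin library and 98 in the saline library, Egfl7 had 9 and 142, Cd93 had 4 and 76, and Cldn5 had 2 and 58. The 2 tested and not called were Plvap at 55 and 82 and Sox17 at 1 and 9. Emcn, a marker of capillary and venous endothelium, was at 0 in both libraries. Their part in the lower counts of Adamts8 and Adamts10 was not tested.

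Pericyte and epithelial markers were called lower or not called, smooth muscle markers were called in both directions, and leukocyte and mesothelial markers had no call. Of 9 tested smooth muscle markers, 1 was higher and 3 lower, with 2650 CPM in the bleomycin library and 2036 CPM in the saline library over 10 genes. There Des, desmin, had 571 counts in the bleomycin library and 169 in the saline library, Hhip, which binds hedgehog ligands, had 51 and 267, the smooth muscle myosin gene Myh11 had 106 and 237, and Cnn1, calponin, had 4 and 17. The 5 smooth muscle markers tested and not called were Tagln at 1220 and 814, Acta2 at 609 and 328, Actg2 at 225 and 226, Smtn at 78 and 158, and Lmod1 at 6 and 12. Of 8 tested pericyte markers, 3 were lower and 0 higher, with 143 CPM and 244 CPM over the list. The called genes were Higd1b at 6 and 44 counts, Cox4i2 at 4 and 43, and Lamc3 at 4 and 29. Of the 5 tested and not called, Cspg4 had 49 and 31, Kcnj8 50 and 69, and Pdgfrb 27 and 30. Notch3 had 8 and 15, and Trpc6 5 and 5. Of 5 tested epithelial markers, 3 were lower and 0 higher, with 36 CPM and 227 CPM over 12 genes, of which 6 and 5 were at 0, and the called genes were the surfactant protein gene Sftpc at 7 and 154 counts, Scgb1a1, a secretoglobin of club cells, at 12 and 46, and the keratin gene Krt7 at 11 and 30. The 8 leukocyte markers in the table summed to 7 counts in the bleomycin library and 9 in the saline library, and none was tested. Of the 7 mesothelial markers in the table, 2 were tested and 0 called, with 138 CPM in the bleomycin library and 157 CPM in the saline library. The part of the pericyte and epithelial markers in the lower counts of Adamts8 and Adamts10 was not tested.

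The members were also compared with each other, since the ratio of 2 members does not depend on how the libraries are scaled. Of 28 pairs, 11 had an exact 95% interval of the ratio of ratios that left out 1, without adjustment over the pairs. Of these, 5 involved Adamts10, 5 involved Adamts8, and 1 was Adamts1 against Adamts12, at 0.353 (0.112 to 0.967). The same members recur across pairs. No share over pairs of all tested genes was computed, so the count of 11 has no background. Adamts1 and Adamts5 are neighbours on mouse chromosome 16 with no protein-coding gene starting between them, and their ratios differed by a factor of 1.01 (0.725 to 1.4). Adamts8 and Adamts15 are neighbours in the same sense on chromosome 9, on opposite strands, and the ratio of Adamts8 was 0.261 (0.0621 to 0.837) times that of Adamts15. Among the aggrecanases, the ratio of Adamts1 was 0.63 (0.393 to 1.00) times that of Adamts4.

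**Figure D3:**
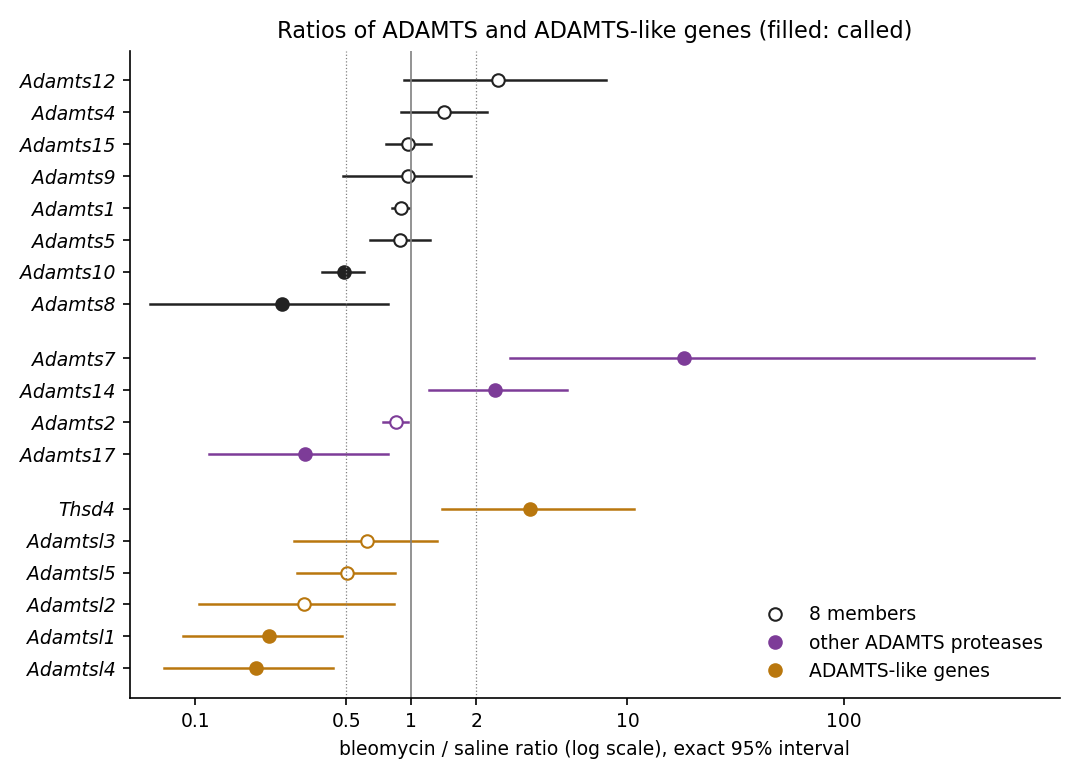
Ratio of bleomycin to saline (log axis) with exact 95% intervals for the 8 members, the other tested ADAMTS proteases and the tested ADAMTS-like genes. Filled points were called and open points were not. Dotted lines mark 2-fold, and 5 of the 8 member intervals cross 1.

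The lists that follow were chosen with earlier results of these data known. Their calls stand beside 8.08% of all tested genes called higher and 8.52% called lower. Of 28 called genes on these protease-related lists, 17 were also called with an assumed coefficient of variation of 0.2 between preparations. Among them were Timp1, Timp3, Fbln1, Fn1 and Dcn. With Bonferroni adjustment 17 were called, and the calls lost there included Adamts7, Adamtsl1, Adamtsl4, Pcsk6 and Hmmr. When 3-fold was required 15 were called, and the calls lost there included Dcn, Fmod, Has1 and Cd44. Among ADAMTS proteases outside the 8, 4 were tested, of which 2 were called higher and 1 lower. Adamts7, which like Adamts12 cuts cartilage oligomeric matrix protein, had 18 counts in the bleomycin library and 1 in the saline library, a ratio of 18.2 (2.87 to 758). In the same order, Adamts14, which trims the amino-terminal propeptide of procollagen, had 29 and 12 counts, and its ratio was 2.44 (1.21 to 5.26). Adamts17, a relative of Adamts19 linked to short stature and eye disease in humans, had 7 counts in the bleomycin library and 22 in the saline library and was 3.11-fold lower (1.28 to 8.61). Adamts2, the main procollagen N-proteinase, was chosen after its values were seen: it stood at 413 and 493 counts, with a ratio of 0.847 (0.742 to 0.968), and was not called. With a coefficient of variation of 0.2 between preparations assumed, Adamts7 was called and Adamts14 and Adamts17 were not. All 16 ADAMTS proteases in the table summed to 1742 CPM in the bleomycin library and 2025 CPM in the saline library, a ratio of 0.861 (0.809 to 0.915).

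ADAMTS-like proteins have the thrombospondin repeats but no protease domain. Of 6 tested, 1 was called higher and 2 lower, with a median log2 ratio of −1.27. Adamtsl4, which binds fibrillin microfibrils and supports the fibres that hold the eye lens, had 7 counts in the bleomycin library and 37 in the saline library and was 5.23-fold lower (2.3 to 13.9). With 8 and 37 counts, Adamtsl1 was 4.57-fold lower (2.1 to 11.4). Thsd4, which promotes the assembly of fibrillin microfibrils, had 21 counts in the bleomycin library and 6 in the saline library, a ratio of 3.54 (1.38 to 10.7).

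Inhibitors were called in both directions. Of 6 tested, 2 were higher and 2 lower, and Timp2, the most abundant with no call, had 1666 counts in the bleomycin library and 2074 in the saline library. Timp3, the most potent of the TIMPs against Adamts4 and Adamts5, had 877 counts in the bleomycin library and 2733 in the saline library, and was 3.08-fold lower (2.85 to 3.33). Timp1, which inhibits matrix metalloproteinases but is weak against most ADAMTS proteases, had 1883 counts in the bleomycin library and 163 in the saline library, 11.7-fold higher (9.95 to 13.8). A2m, a broad protease trap that also binds aggrecanases, had 40 counts in the bleomycin library and 11 in the saline library, a ratio of 3.68 (1.85 to 7.95). Reck, a membrane-anchored inhibitor of metalloproteases, stood at 20 and 70 counts, 3.46-fold lower (2.08 to 6.01).

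Genes for activation, uptake and cofactors were called in both directions, with 4 of 11 tested higher and 2 lower. Pcsk5, a proprotein convertase, had 247 counts in the bleomycin library and 116 in the saline library, a ratio of 2.15 (1.72 to 2.71), whereas Pcsk6, a convertase that activates aggrecanases in cartilage, stood at 4 and 28 counts, 6.92-fold lower (2.42 to 27.2). Fbln1, fibulin-1, a cofactor of Adamts1 in cutting aggrecan, had 111 counts in the bleomycin library and 599 in the saline library and was 5.34-fold lower (4.35 to 6.59). Sdc1, a heparan sulphate proteoglycan of the cell surface, stood at 136 and 6 counts, and its ratio was 22.9 (10.3 to 63.6). Sdc3, a syndecan, had a ratio of 2.41 (1.62 to 3.63) from 88 counts in the bleomycin library and 37 in the saline library. Mmp14, a membrane-type metalloprotease, stood at 596 and 293 counts, and its ratio was 2.06 (1.79 to 2.37). Lrp1, the uptake receptor, was chosen after its values were seen: it had 633 counts in the bleomycin library and 1217 in the saline library, a ratio of 0.526 (0.477 to 0.58) that stayed under 2-fold.

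Among substrates and matrix partners, 6 of 16 tested genes were called higher and 1 lower, against 8.08% and 8.52% of all tested genes. Vcan, versican, the only lectican with enough counts for a test, had 88 counts in the bleomycin library and 75 in the saline library, a ratio of 1.19 (0.862 to 1.64), and was not called. Acan, aggrecan, had 1 count in the bleomycin library and 0 in the saline library, and the lecticans Bcan and Ncan had 0 in both. For a count of 0 such as that of Bcan, the upper end of the exact 95% Poisson interval was 3.40 CPM in the bleomycin library and 3.36 CPM in the saline library.

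Of the small proteoglycans on the list, 1 was called lower, 1 higher and 1 not called. Dcn, decorin, had 1606 counts in the bleomycin library and 4861 in the saline library and was 2.99-fold lower (2.83 to 3.17), whereas Fmod, fibromodulin, stood at 413 and 154 counts with a ratio of 2.71 (2.25 to 3.29). Bgn, biglycan, chosen after its values were seen, had 1406 counts in the bleomycin library and 1371 in the saline library, and its ratio of 1.04 (0.962 to 1.12) had an interval that held 1. Fn1, fibronectin, had 8890 counts in the bleomycin library and 1018 in the saline library, a ratio of 8.83 (8.28 to 9.43). Fbln2, fibulin-2, stood at 395 and 185 counts with a ratio of 2.16 (1.81 to 2.59), and Thbs2, a thrombospondin, had 33 and 14 and a ratio of 2.38 (1.24 to 4.82). The growth factor genes Areg and Hbegf, whose membrane-bound products Adamts1 has been reported to release in human tumour cells, had ratios of 22.2 (7.29 to 111) and 2.69 (1.8 to 4.09). Areg had 66 counts in the bleomycin library and 3 in the saline library, and Hbegf had 93 and 35.

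**Figure D4:**
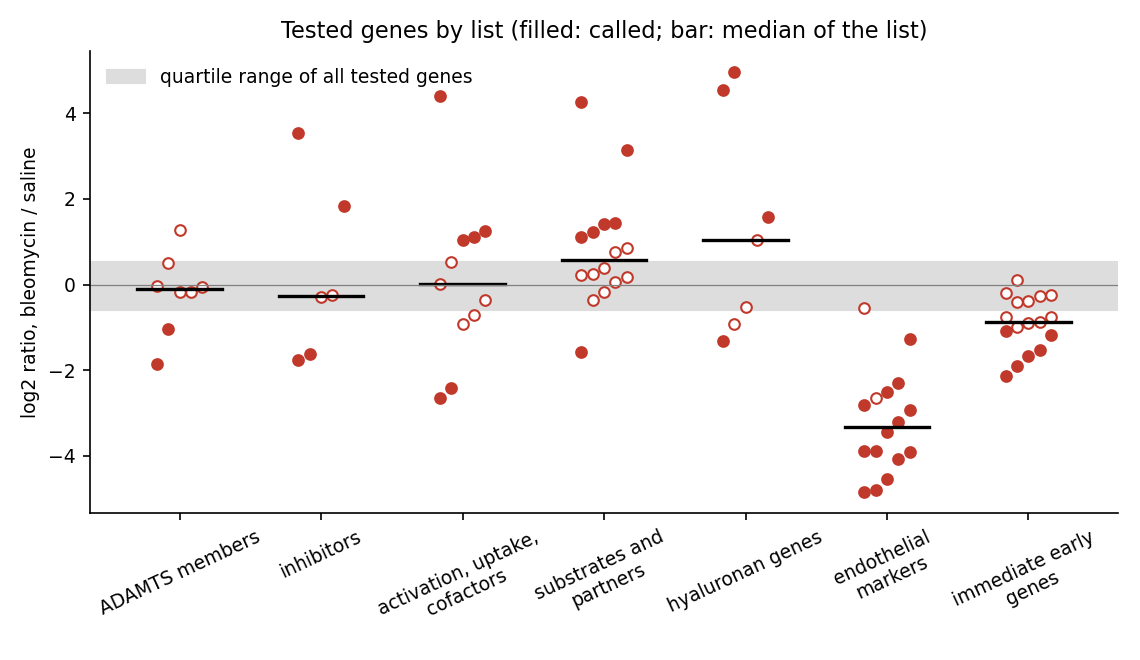
Log2 ratio of bleomycin to saline for the tested genes of each list, with called genes filled, the median of each list as a black bar, and a grey band from −0.59 to 0.54 between the quartiles of all tested genes. Of the 8 ADAMTS members, 5 lie inside the band, while endothelial markers lie mostly far under it.

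The hyaluronan network that holds the lecticans was measured through 7 tested genes, of which 3 were called higher and 1 lower. Has1, a hyaluronan synthase, had 295 counts in the bleomycin library and 749 in the saline library and was 2.51-fold lower (2.19 to 2.88). Cd44, the main hyaluronan receptor, stood at 330 and 111 counts, and its ratio was 3.01 (2.42 to 3.76). Cemip, which takes part in hyaluronan breakdown and is listed under its older symbol 9930013L23Rik, had 103 counts in the bleomycin library and 4 in the saline library, a ratio of 26 (9.87 to 97.4). Hmmr, a hyaluronan-binding protein of the mitotic spindle, had 15 counts in the bleomycin library and 0 in the saline library. With the 0 replaced by 3 counts it was 5.06-fold higher, and the exact interval of its ratio began at 3.63. The enzymes that add sugars to thrombospondin repeats had 1 of 4 tested genes higher and 0 lower: Dpy19l3, a mannosyltransferase, had 27 counts in the bleomycin library and 11 in the saline library, a ratio of 2.48 (1.19 to 5.55).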

How the data were processed

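RNA of sorted lung fibroblasts was measured in 2 libraries, 1 per treatment. Per the labels' protocols, libraries were made with the SOLiD SAGE kit. BWA 0.6.2 and mm9 appear in the submitters' processing notes without a stated role. The rule that assigned tags to genes and the use of strand are not given in the sources used here. In the table, the authors deposited whole-number tag counts per gene, with a RefSeq transcript beside each symbol. No label says whether the counts were scaled, so tests and intervals hold only if they are raw counts.

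Of the deposited lines, 1 blank line was left out, which left 16040 genes. Library sizes were scaled with TMM in edgeR 4.0.16 (R 4.3.3). The quasi-likelihood test of edgeR could not be fitted without replicates. Genes with at least 10 counts over both libraries were compared by a two-sided exact binomial test, with Benjamini-Hochberg adjustment over all 9369 genes tested. A gene was called when the adjusted p was under 0.05 and the log2 ratio, with 0.5 added to each count, was past 2-fold. The form of the two-sided p and the added 0.5 in the 2-fold limit were settled after counts of calls had been seen, to match earlier counts from these data; the forms tried before are given with the alternatives. Ratios have exact Clopper-Pearson 95% intervals and counts exact Poisson intervals; both cover counting error only, since no molecular identifiers are named. The code was tested on simulated data. Alternatives changed the scaling (total counts, DESeq2 1.42.0 size factors), the minimum count, the fold, the adjustment and the added count, or assumed a spread between preparations. Python 3.11.15, scipy 1.17.1, pandas 2.3.3 and matplotlib 3.10.9 were used.

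Tags were read from GENCODE mouse release M21 transcripts (GRCm38) that GENCODE pairs with the deposited accessions. That build differs from mm9, so no coordinates are given. The members and lists were chosen with earlier results of these data known. Of 194 list entries in 17 lists, 174 matched a gene in the table, older symbols through the RefSeq gene table of GRCm38. The genes named are all members, the called genes of the protease-related lists, the most abundant gene of a list with no call, and up to 4 called genes of each cell type list by counts; any other was chosen after its values were seen.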

Additional observations from a re-analysis of the deposited data

How the results depend on the processing

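No paired analysis was possible because each group is 1 library, and no library could be left out. All 8 members kept the direction of their log2 ratio under every alternative that could be run on them, and 78 of 85 such values stayed on the same side of the call. With a minimum of 50 counts, Adamts8, Adamts9 and Adamts12 could not be tested. Adamts8, with a log2 ratio of −1.86, was no longer called with no minimum count, with Bonferroni adjustment, or under a coefficient of variation of 0.2 or 0.4 assumed for separate preparations. Adamts10, with a log2 ratio of −1.04, was no longer called when 3-fold was required or with an assumed coefficient of variation of 0.2 or 0.4. Members called lower numbered 1 with no minimum, with a minimum of 50, with Bonferroni adjustment and when 3-fold was required, and 0 with either assumed coefficient, where 0 were called higher too. Where no minimum count or Bonferroni adjustment ended the call of Adamts8, its counts and unadjusted p were unchanged and only the adjustment differed.

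Over all tested genes, calls of higher and lower numbered 396 and 484 with a minimum of 50 counts, 443 and 445 when 3-fold was required, 288 and 333 with Bonferroni adjustment, 274 and 333 with an assumed coefficient of 0.2, and 21 and 8 with 0.4, against 757 and 798. Total counts gave 675 higher and 927 lower, DESeq2 size factors 686 and 811, no minimum 745 and 765, and an added count of 5 gave 683 and 723. Of 53 tested genes on the protease-related lists, 19 were called higher and 9 lower, against 8.08% and 8.52% of all tested genes. The higher count moved to 9 when 3-fold was required, 12 with Bonferroni adjustment, 9 with an assumed coefficient of 0.2 and 3 with 0.4. It was 13 with a minimum of 50 counts, and 18 with total counts, DESeq2 size factors or no minimum. The lower count moved to 5 with a minimum of 50 counts, 5 with Bonferroni adjustment and 0 with an assumed coefficient of 0.4. It was 6 when 3-fold was required, 11 with total counts and 8 with an assumed coefficient of 0.2. Of the 28 called, 17 were also called with an assumed coefficient of 0.2, losing A2m, Adamts14, Adamts17, Dpy19l3, Fbln2, Hbegf, Mmp14, Pcsk5, Sdc3, Thbs2 and Thsd4, and 3 with 0.4, Timp1, Sdc1 and Cemip. Bonferroni adjustment left 17, losing A2m, Adamts7, Adamts14, Adamts17, Adamtsl1, Adamtsl4, Dpy19l3, Hmmr, Pcsk6, Thbs2 and Thsd4. Requiring 3-fold left 15, losing Adamts14, Adamts17, Cd44, Dcn, Dpy19l3, Fbln2, Fmod, Has1, Hbegf, Mmp14, Pcsk5, Sdc3 and Thbs2. Total counts ended the call of Mmp14, and DESeq2 size factors or no minimum that of Dpy19l3. Other forms of the test were run before the reported one was settled, and so are alternatives chosen after seeing the data. A plain ratio of at least 2 gave 760 higher and 805 lower over all genes, and with the smaller binomial tail doubled as well 711 and 777; under both, members called numbered 0 higher and 2 lower, and all 28 related genes kept their call. The ratio of the summed members moved by less than its counting interval under other scalings. Depth limits Adamts8, Adamts9 and Adamts12 most.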
